A study of Mus musculus with 12 samples.

Results

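The genes described here are the core machinery through which activin and nodal signal: the transducers Smad2, Smad3 and Smad4, the related transducers Smad1 and Smad5, the DNA-binding cofactor Foxh1, and the activin receptors Acvr1b, Acvr2a and Acvr2b. All probe sets of the listed gene symbols were taken. The members comprise 9 of the 18193 genes named on the arrays. They are measured by 24 of 45037 probe sets, and 22 of the 24 lie in the upper 50% of probe sets by mean signal. A further probe set, assigned to both Orc4 and Acvr2a, was left out.

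Activin and nodal are bound by the type II receptors Acvr2a and Acvr2b, which switch on the type I receptor Acvr1b. Acvr1b phosphorylates Smad2 and Smad3, which join Smad4, enter the nucleus and are brought to DNA by partners such as Foxh1. Bone morphogenetic proteins (BMPs) signal in the same manner through Smad1 and Smad5, which share Smad4, and in the early mouse embryo the activin and nodal branch is needed for mesoderm and endoderm to form.

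The material was embryoid bodies, in which mouse embryonic stem cells (strain 129) differentiate as aggregates, grown in suspension without the self-renewal factor LIF and treated at day 2.5. The 3 genotypes were Trim33-KD (a knock-down of Trim33, a chromatin-associated ubiquitin ligase and partner of Smad2 and Smad3), Smad4-null and wild type (WT). Each received either activin (ac) at 50 ng/ml or SB431542 (SB), labelled as 10 mM, for 2 h; SB431542 inhibits the type I receptors of activin, nodal and TGF-beta. No group was untreated, so the "response" below is activin minus SB431542. Total RNA was hybridized to 12 Affymetrix arrays, 2 for each of 6 groups, or 4 per genotype. The labels do not say how Smad4 was disrupted, how Trim33 was knocked down, how many clones were used or whether replicates were separate cultures. A property of a line and its genotype therefore cannot be told apart, and p-values may measure technical spread only. In whole embryoid bodies, fewer cells of a type and less RNA per cell cannot be told apart either. All values are deposited log2 signals, levels are compared within a probe set only, and precision is limited by how few arrays there are.

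Several facts of the arrays bear on the values below. Both WT arrays numbered 1 had little 18S rRNA signal (5.53 with activin, 5.82 with SB431542; 7.56 to 10.2 on the other arrays). A narrow spread of log2 signal marked Smad4-null-ac replicate 1 (SD 3.12) and, among the WT-SB arrays, replicate 2 (SD 3.07), with 3.24 to 3.38 on the others. The summed linear signal of 7 mesendoderm markers was 2359 to 6637 on Trim33-KD arrays, 651 to 871 on Smad4-null arrays and 4719 to 10466 on WT arrays, and 7 of 7 were called lower in Smad4-null than in WT. For 8 epiblast markers the sums were 47206 to 53523 in Trim33-KD, 53386 to 55336 in Smad4-null and 45087 to 52864 in WT, with every Smad4-null array slightly above every WT array. For 8 feeder fibroblast markers they were 581 to 658 in Trim33-KD, 656 to 729 in Smad4-null and 604 to 760 in WT, with Col1a1, Lum and Postn under a linear signal of 64 on all arrays. For 8 extraembryonic endoderm markers they were 791 to 932 in Trim33-KD, 735 to 862 in Smad4-null and 937 to 1141 in WT, with Afp and Ttr under 64 on all arrays. Single markers differed more than these sums. Between Smad4-null and WT, 2 epiblast markers were called higher and 1 lower in Smad4-null, and 1 feeder fibroblast marker higher and 2 lower. Of the extraembryonic endoderm markers, 0 were called higher and 2 lower. Of all genes, each at its brightest probe set, 12.6% were called in this comparison. The part of these cell mixtures in the differences below was not tested.

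Trim33 averaged 10.18 in Trim33-KD, 11.73 in Smad4-null and 11.72 in WT, a Trim33-KD minus WT difference of -1.54 (SE 0.14, limma adjusted p = 0.0271). Smad4, the transducer that both branches share, was by contrast at full signal on the Smad4-null arrays. Its brightest probe set, 1422487_at, read 12.01 and 11.84 with activin and 11.91 and 11.81 with SB431542 in Trim33-KD, 12.16 and 12.16 and then 12.24 and 12.10 in Smad4-null, and 11.90 and 12.03 and then 11.90 and 12.02 in WT, activin first in each genotype. All 4 Smad4-null arrays lay above all 4 WT arrays by a small margin, and the Trim33-KD and WT arrays overlapped.

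Smad4 differed between Smad4-null and WT by 0.20 (SE 0.10, limma adjusted p = 0.297). Its 3 probe sets stood at 115%, 110% and 101% of WT, and none was called. The sources used here do not say which part of Smad4 is mutated, so these probe sets do not check the genotype label. The Trim33-KD minus Smad4-null difference was -0.27 (SE 0.10, adjusted p = 0.151). Smad4 probe sets correlated with each other at r of 0.63 to 0.86 over the 12 arrays, which share their labelling and scaling.

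Smad2 and Smad3, the transducers that activin receptors phosphorylate, differed little between groups. Smad2 (1420634_a_at) read 10.27 and 10.40 with activin and 10.38 and 10.35 with SB431542 in Trim33-KD, 10.48 and 10.56 and then 10.46 and 10.48 in Smad4-null, and 10.31 and 10.27 and then 10.25 and 10.15 in WT. The 4 Smad4-null arrays were the 4 highest of all, while Trim33-KD overlapped WT. Between Smad4-null and WT the difference was 0.25 (SE 0.09, 95% interval 0.03 to 0.47, adjusted p = 0.160), or 119% of WT, and the second Smad2 probe set, 1442062_at, differed by 0.18 with overlapping arrays.

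Smad3 (1454960_at) read 9.58 and 9.38 with activin and 9.55 and 9.54 with SB431542 in Trim33-KD, 9.46 and 9.53 and then 9.54 and 9.64 in Smad4-null, and 9.48 and 9.63 and then 9.60 and 9.69 in WT. The arrays of all 3 genotypes overlapped, and the 6 group means spanned only 0.16, the narrowest range of the 9 members. The Smad4-null minus WT difference was -0.06 (95% interval -0.29 to 0.18) and the Trim33-KD minus WT difference -0.09 (95% interval -0.32 to 0.15). The dimmer probe sets of Smad3 behaved differently. In WT, 1450472_s_at read 7.32 and 7.54 on the replicate 1 arrays but 6.19 and 6.08 on the replicate 2 arrays, and 1450471_at read 7.43 and 7.40 but 6.15 and 5.52. These high readings fall on the 2 arrays of low 18S signal, and the r of either probe set with 1454960_at was -0.22 to 0.01; their part in any Smad3 difference was not tested.

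**Figure D1:**
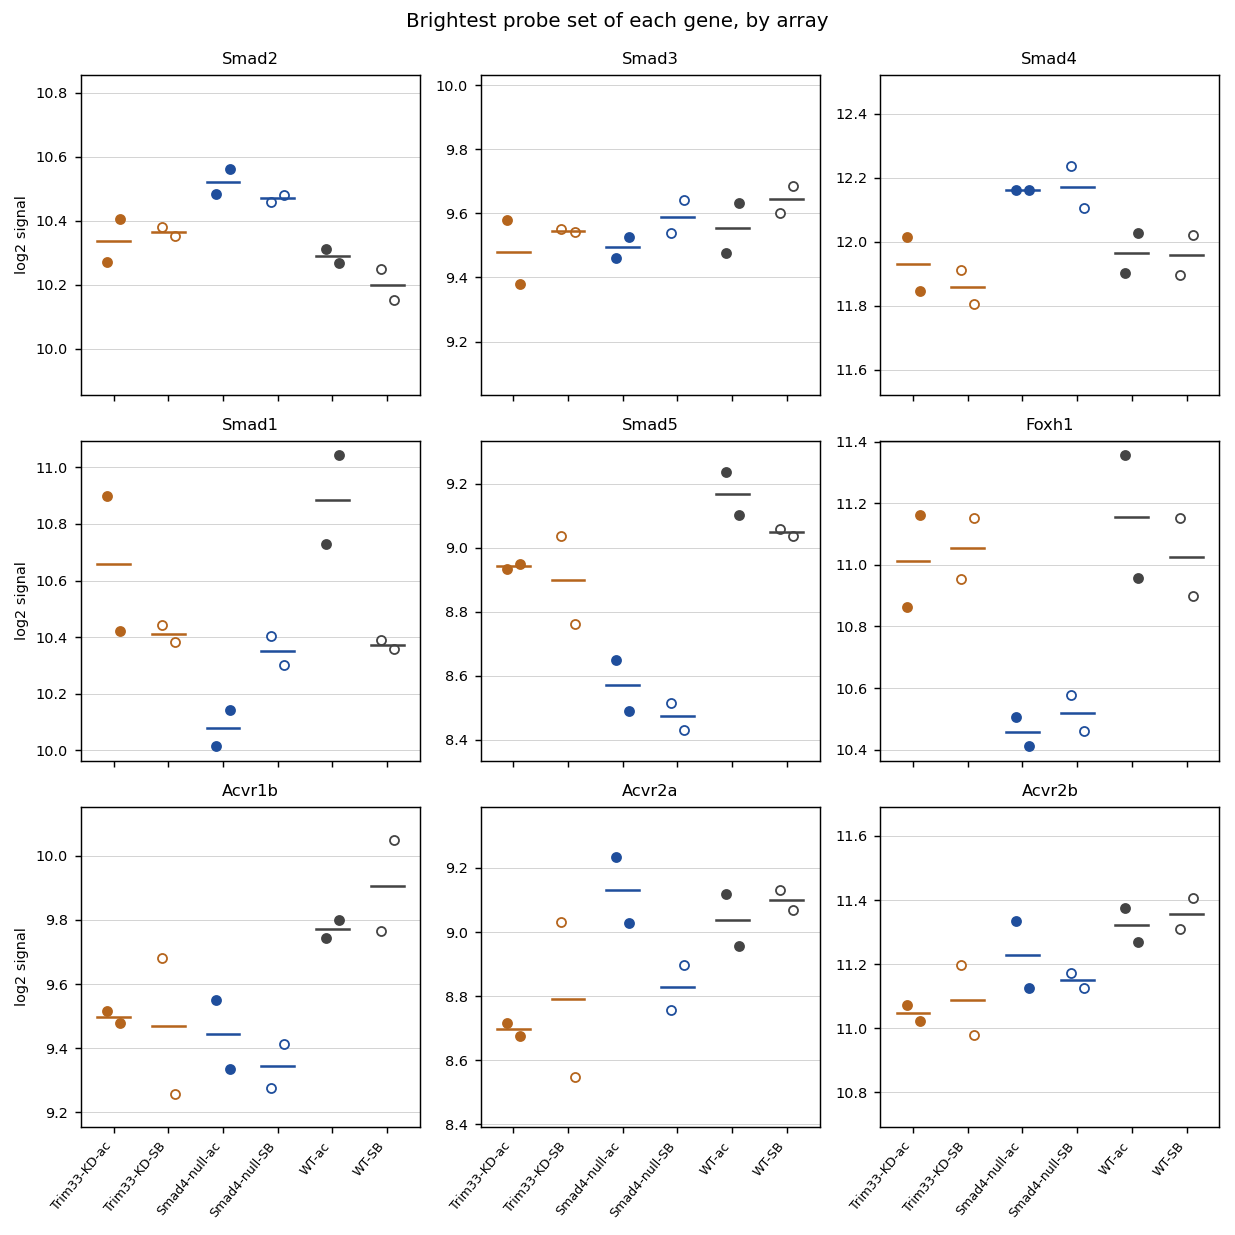
Log2 signal of each member's brightest probe set on the 12 arrays, in 6 groups along the x axis (filled points, activin; open points, SB431542; bars, group means; each panel has its own y range). Smad5 and Foxh1 are low on all 4 Smad4-null arrays, while Smad3 is level across the groups.

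Smad1 and Smad5, the transducers of the BMP branch, were lower in Smad4-null than in WT. Each was called in 1 of its 3 probe sets. The 250 bases upstream of their RefSeq starts (assembly GRCm38.p6) are shown because these are the transducers that the comparison of Smad4-null with WT called; capitals mark GGCGC on either strand, a GC-rich string that Smad proteins can bind. Smad1 is read from chr8:79399429-79399678 on the minus strand and Smad5 from chr13:56702760-56703009 on the plus strand, the outermost of 3 Smad5 starts in the table.
Smad1 upstream: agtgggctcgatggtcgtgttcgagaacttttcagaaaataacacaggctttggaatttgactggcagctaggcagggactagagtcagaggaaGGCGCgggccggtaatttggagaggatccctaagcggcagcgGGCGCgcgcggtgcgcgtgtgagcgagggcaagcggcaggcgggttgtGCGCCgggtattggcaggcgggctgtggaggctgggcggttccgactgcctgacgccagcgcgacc
Smad5 upstream: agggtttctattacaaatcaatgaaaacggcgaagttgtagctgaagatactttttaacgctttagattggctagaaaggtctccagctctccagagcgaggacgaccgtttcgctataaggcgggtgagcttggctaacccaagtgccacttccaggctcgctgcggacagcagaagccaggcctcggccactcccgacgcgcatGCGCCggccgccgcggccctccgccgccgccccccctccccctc

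The string GGCGC occurred 3 times in the Smad1 window and 1 time in the Smad5 window, and 32.0% of 32851 RefSeq windows of this length held it. Among the other member windows it occurred 4 times for Acvr1b, 2 times for Acvr2a, 3 times for Acvr2b and 0 times for Smad3, and no probe set of these 4 genes was called in any comparison. The windows are rich in G and C, at 63.6% for Smad1 and 60.0% for Smad5, against a median of 52.4% over all windows. The other Smad-binding string, CAGAC, was found on neither strand of either, occurred 1 time each for Acvr2a and Acvr2b, and is in 42.2% of windows. A form of the Foxh1 recognition sequence, TGTGGATT on either strand, was in 0.718% of all windows and in none of the 6 member windows given. A further form, TGTGTATT, was in 0.895% of all windows and likewise in none of the 6. In the 6 windows no match of 1 string overlapped a match of another. None of these letter matches shows binding.

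Smad1 had its largest difference in its dimmest probe set. This probe set, 1416081_at, read 7.64 and 7.49 with activin and 7.55 and 7.36 with SB431542 in Trim33-KD, 6.31 and 6.77 and then 7.18 and 6.81 in Smad4-null, and 8.38 and 8.29 and then 7.81 and 7.37 in WT. Every Smad4-null array lay below every WT array and every Trim33-KD array, and the Smad4-null activin arrays were the lowest of all. Smad1 in Smad4-null was at 43.8% of WT by this probe set, a difference of -1.19 (SE 0.17, limma adjusted p = 0.00603).

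The brightest Smad1 probe set, 1448208_at, read 10.90 and 10.42 with activin and 10.44 and 10.38 with SB431542 in Trim33-KD, 10.01 and 10.14 and then 10.40 and 10.30 in Smad4-null, and 10.73 and 11.04 and then 10.39 and 10.36 in WT. Here the SB431542 arrays of the 3 genotypes ran together and only the activin arrays separated Smad4-null from WT. Its Smad4-null minus WT difference of -0.42 (SE 0.14, adjusted p = 0.124) was not called, and 1459843_s_at differed by -0.49 (SE 0.14, adjusted p = 0.0739). The 3 probe sets correlated at r of 0.80 to 0.85 over the 12 arrays.

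Smad5 (1433641_at) read 8.93 and 8.95 with activin and 9.04 and 8.76 with SB431542 in Trim33-KD, 8.65 and 8.49 and then 8.52 and 8.43 in Smad4-null, and 9.24 and 9.10 and then 9.06 and 9.04 in WT. The 3 genotypes did not overlap: Smad4-null was lowest, Trim33-KD in between and WT highest, the last 2 nearly touching. Smad5 differed between Smad4-null and WT by -0.59 (SE 0.11, adjusted p = 0.0168), or 66.6% of WT. The Trim33-KD minus WT difference was -0.19 (95% interval -0.44 to 0.06, adjusted p = 0.475). The other Smad5 probe sets differed by -0.36 (1451873_a_at, adjusted p = 0.210) and -0.51 (1421047_at, adjusted p = 0.274) between Smad4-null and WT, and the 3 correlated at r of -0.02 to 0.56.

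Foxh1, the winged-helix cofactor that carries Smad2 and Smad3 complexes to DNA, read lower on all 4 Smad4-null arrays than on any other array in all 3 of its probe sets, of which 2 were called against WT. Its brightest probe set, 1422213_s_at, whose suffix marks probes that may also detect related transcripts, read 10.86 and 11.16 with activin and 10.95 and 11.15 with SB431542 in Trim33-KD, 10.51 and 10.41 and then 10.58 and 10.46 in Smad4-null, and 11.36 and 10.96 and then 11.15 and 10.90 in WT. The 4 Smad4-null arrays were the 4 lowest, with a clear gap, and Trim33-KD and WT were mixed. The Smad4-null minus WT difference was -0.60 (SE 0.14, limma adjusted p = 0.0407), or 65.9% of WT. In WT the replicate 1 arrays, those of low rRNA signal, read higher (11.36 and 11.15) than the replicate 2 arrays (10.96 and 10.90). Without these replicate 1 arrays the difference was -0.44.

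The tightest Foxh1 probe set, 1437779_at, read 10.43 and 10.54 with activin and 10.55 and 10.49 with SB431542 in Trim33-KD, 9.99 and 9.94 and then 10.06 and 9.93 in Smad4-null, and 10.41 and 10.49 and then 10.32 and 10.34 in WT. It gave a Smad4-null minus WT difference of -0.41 (SE 0.09, adjusted p = 0.0381), or 75.4% of WT, again with no overlap. The remaining one, 1422212_at, differed by -0.78 (SE 0.23, adjusted p = 0.0826) and missed the threshold although no arrays overlapped. In WT it read 10.50 and 10.25 on the replicate 1 arrays, those of low 18S signal, and 9.82 and 9.43 on the replicate 2 arrays, and what part these arrays have in its size was not tested. Foxh1 probe sets correlated at r of 0.72 to 0.93.

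**Figure D2:**
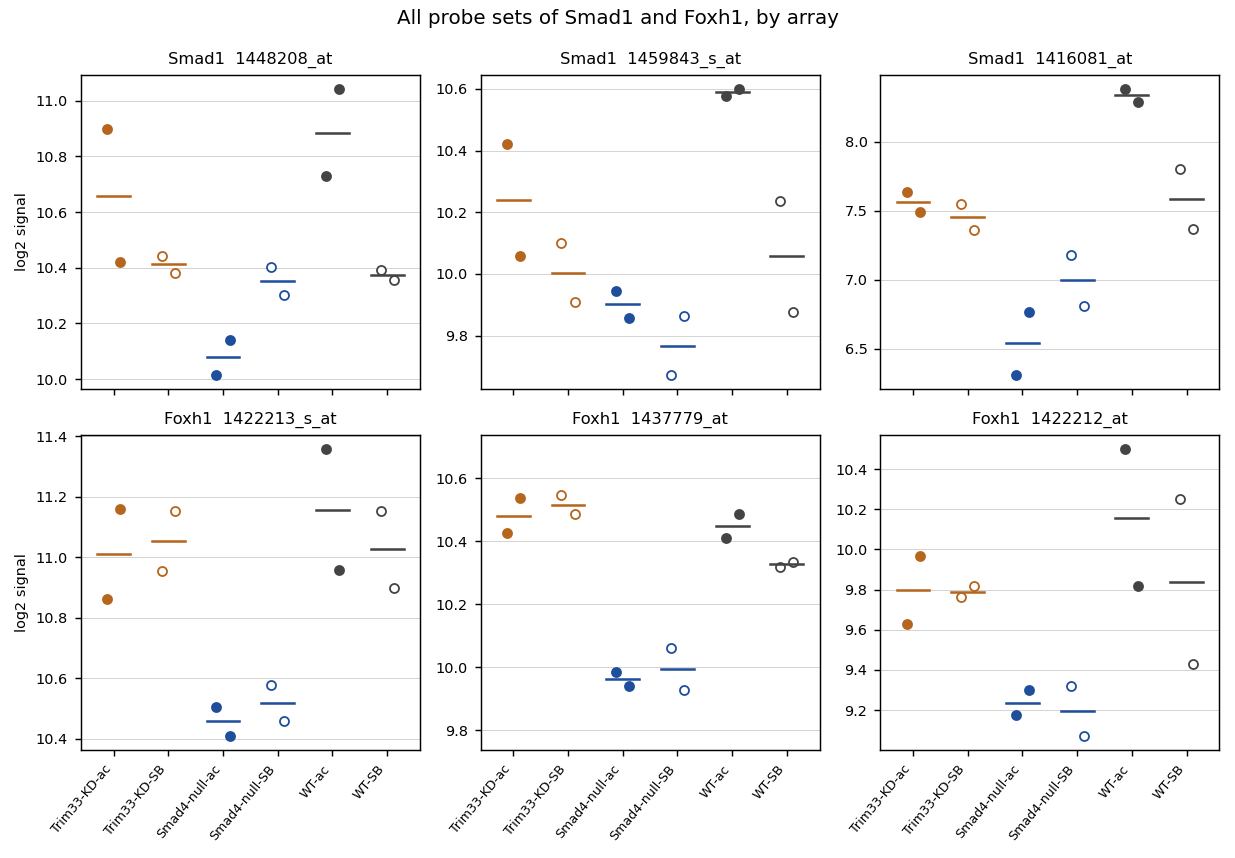
Log2 signal of all 3 probe sets of Smad1 (top) and of Foxh1 (bottom) on the 12 arrays (filled points, activin; open points, SB431542; bars, group means; each panel has its own y range). All 3 Foxh1 probe sets are lowest on the 4 Smad4-null arrays with either treatment, while the group mean of every Smad1 probe set is highest in WT with activin.

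The type I receptor gene Acvr1b (1433725_at) read 9.52 and 9.48 with activin and 9.68 and 9.26 with SB431542 in Trim33-KD, 9.55 and 9.33 and then 9.28 and 9.41 in Smad4-null, and 9.74 and 9.80 and then 9.76 and 10.05 in WT. All 8 mutant arrays lay below all 4 WT arrays, and the mutants overlapped each other. The Smad4-null minus WT difference was -0.45 (SE 0.14, 95% interval -0.76 to -0.13, adjusted p = 0.0943) and the Trim33-KD minus WT difference -0.36 (95% interval -0.67 to -0.04, adjusted p = 0.328). Neither passed the threshold, and both comparisons share the WT arrays. The dim probe set 1422098_at ranged from 4.34 to 6.05 with overlap in every comparison.

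The type II receptor genes had no probe set called between any genotypes. Acvr2b (1419140_at) read 11.07 and 11.02 with activin and 11.20 and 10.98 with SB431542 in Trim33-KD, 11.33 and 11.12 and then 11.17 and 11.13 in Smad4-null, and 11.38 and 11.27 and then 11.31 and 11.40 in WT. Trim33-KD lay below WT without overlap, while Smad4-null reached into the WT range. The Trim33-KD minus WT difference was -0.27 (95% interval -0.52 to -0.02, adjusted p = 0.337), and for the second probe set, 1439856_at, it was -0.63 (95% interval -1.13 to -0.14, adjusted p = 0.288). The Smad4-null minus WT difference was -0.15 (95% interval -0.40 to 0.10). The remaining probe set, 1440525_at, was dim and reached 7.84 at most, with overlap between all genotypes.

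Acvr2a (1437382_at) read 8.72 and 8.68 with activin and 9.03 and 8.55 with SB431542 in Trim33-KD, 9.23 and 9.03 and then 8.76 and 8.90 in Smad4-null, and 9.12 and 8.96 and then 9.13 and 9.07 in WT. All 3 genotypes overlapped. The Trim33-KD minus WT difference was -0.33 (95% interval -0.64 to -0.01, adjusted p = 0.357) and the Smad4-null minus WT difference -0.09 (95% interval -0.41 to 0.23). Its other probe set, 1451004_at, ranged from 7.45 to 8.28 and was called in no comparison.

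Counted over the 24 probe sets, 4 were called between Smad4-null and WT, all lower in Smad4-null: 1 of Smad1, 1 of Smad5 and 2 of Foxh1. That is 16.7% of the members, against 8.84% of all probe sets called in either direction, 5.48% called lower, and 14.3% called in either direction among probe sets in the upper 50% of mean signal, where 22 of the 24 lie. Against that last figure the members' share is near the background. Of the 9 genes at their brightest probe set 2 were called, Smad5 and Foxh1, against 12.6% of all genes. Arrays did not overlap for 7 probe sets lower and 2 higher in Smad4-null, against 10.7% and 8.43% of all probe sets. In either direction the share was 31.1% among probe sets in the upper 50% of mean signal. The median difference was -0.38 over the members and -0.02 over all probe sets. At the brightest probe set it was -0.15 over the members and -0.03 over all genes.

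These 4 calls rest on few arrays. Calls over all probe sets also became fewer whenever 1 array was left out. Leaving out 1 array at a time gave counts of 1 to 3: 1 without WT-ac replicate 1, Smad4-null-ac replicate 2 or either Smad4-null-SB array, 2 without WT-SB replicate 1, Smad4-null-ac replicate 1 or any Trim33-KD array, and 3 without WT-ac replicate 2 or WT-SB replicate 2. Without both WT arrays of low 18S signal, a setting chosen after the data were seen, the count was 0; Smad1 1416081_at then differed by -1.06 (adjusted p = 0.0612), Smad5 1433641_at by -0.55 (adjusted p = 0.111), Foxh1 1422213_s_at by -0.44 (adjusted p = 0.197) and Foxh1 1437779_at by -0.43 (adjusted p = 0.131). Smad1 1416081_at was called in all 12 fits that left out a single array and Smad5 in 8 of them.

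**Figure D3:**
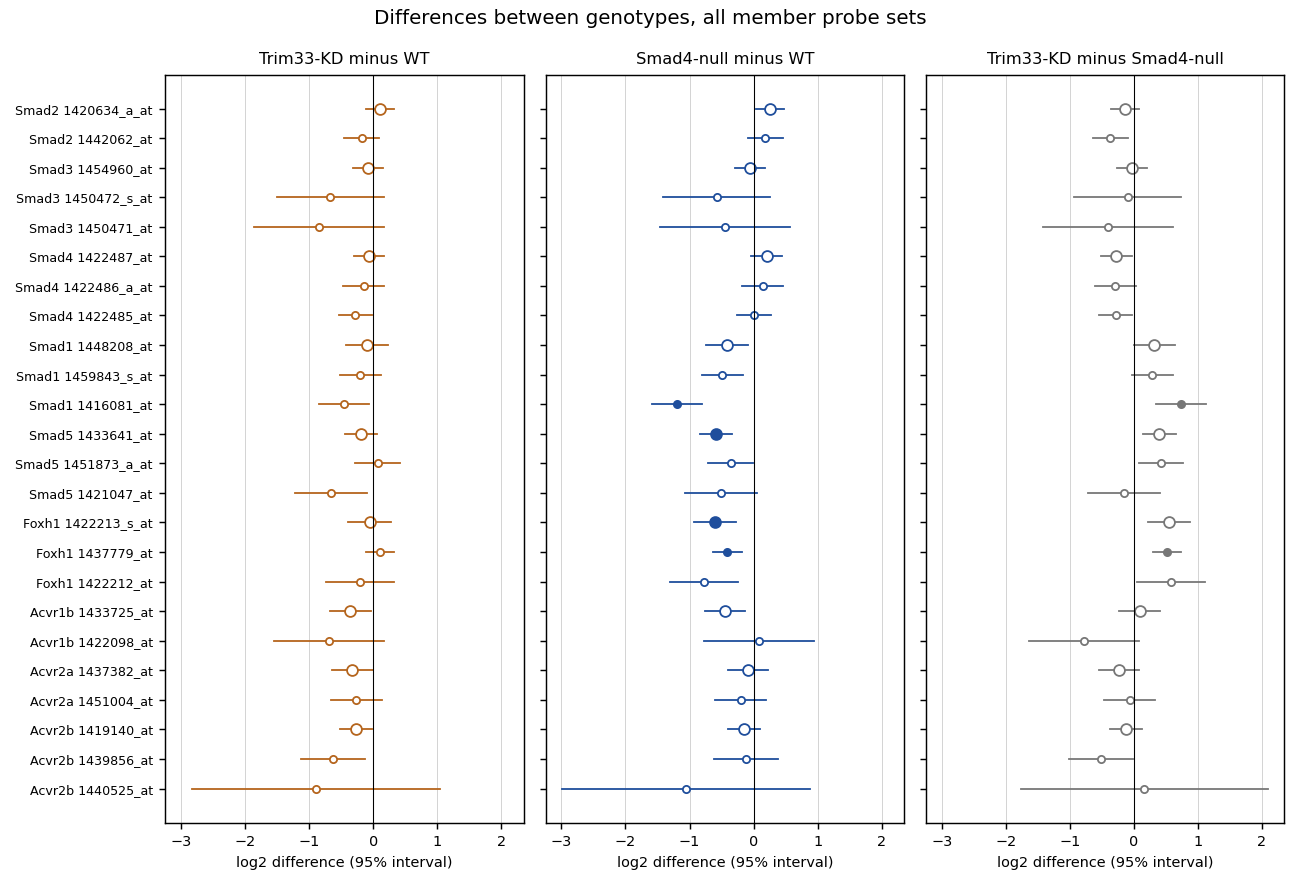
Log2 difference with its 95% interval (x axis) for the 24 probe sets in the 3 genotype comparisons (filled points, limma adjusted p under 0.05; large points, each gene's brightest probe set). Filled points are 4 in Smad4-null minus WT, 2 in Trim33-KD minus Smad4-null and 0 in Trim33-KD minus WT.

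Between Trim33-KD and WT limma called 0 of the 24, against 0.113% of all probe sets. At an unadjusted p under 0.05 there were 7, all lower in Trim33-KD, where 13.6% of all probe sets passed and 9.47% passed as lower. They comprised 1 probe set each of Smad1, Smad4, Smad5, Acvr1b and Acvr2a and 2 of Acvr2b. Arrays did not overlap for 5 probe sets lower and 0 higher, against 6.07% and 3.84% of all probe sets. Among the brighter probe sets defined above, where most members lie, the share in either direction was 14.0%. The median over the members was -0.24, but the median over all probe sets was itself -0.13 as deposited, and 0.08 after centring each array on its median. At the brightest probe set, the deposited median was -0.09 over the members and -0.04 over all genes. Read there, Foxh1 (-0.06), Smad4 (-0.07) and Smad3 (-0.09) lay above the median of all probe sets but slightly below that of all genes. Acvr1b (-0.36), Acvr2a (-0.33) and Acvr2b (-0.27) lay below both medians. Over all alternatives, both rescalings included, Acvr1b ranged from -0.46 to -0.16, Acvr2a from -0.45 to -0.12 and Acvr2b from -0.33 to -0.07.

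Between the mutants, 2 probe sets were called, both higher in Trim33-KD, against 9.47% of all probe sets and 5.11% called higher. They were Smad1 1416081_at, at 0.74 (SE 0.17, adjusted p = 0.0339), and Foxh1 1437779_at, at 0.52 (SE 0.09, adjusted p = 0.0154). Among the brighter probe sets, where most members lie, 14.6% were called in either direction. Foxh1 1422213_s_at (0.54, adjusted p = 0.0549) and Smad5 1433641_at (0.40, adjusted p = 0.0634) missed the threshold without overlap of the arrays. Arrays did not overlap for 5 probe sets higher and 4 lower, against 10.0% and 11.9% of all probe sets. In either direction the share was 34.3% among the brighter probe sets. The count was 0 without Trim33-KD-ac replicate 2, either Smad4-null-SB array or Smad4-null-ac replicate 1, and 1 without Smad4-null-ac replicate 2, either WT-ac array or any other Trim33-KD array. No test of the 9 members as a set was made.

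Activin against SB431542 for 2 h called none of the members. In WT limma called 0 of 24 (0.00444% of all probe sets were called), in Smad4-null 0 of 24 (0%), in Trim33-KD 0 of 24 (0.00222%) and in the mean over the genotypes 0 of 24 (0.0400%). At an unadjusted p under 0.05 the counts were 3, 0, 0 and 1, where 3.74%, 6.53%, 4.57% and 3.98% of all probe sets passed. The mean response, the most precise of these, was bounded as follows at the brightest probe sets. The 95% intervals were -0.14 to 0.21 for Smad2, -0.28 to 0.11 for Smad3, -0.17 to 0.22 for Smad4, -0.20 to 0.20 for Acvr2b, -0.26 to 0.26 for Acvr1b and -0.21 to 0.31 for Acvr2a. For Foxh1 the interval was -0.26 to 0.28, for Smad5 -0.12 to 0.29 and for Smad1 -0.10 to 0.43. This mean includes the Smad4-null arrays and does not bound the response in WT alone. There the intervals were wider, at -0.22 to 0.40 for Smad2, -0.58 to 0.31 for Acvr1b and 0.05 to 0.97 for Smad1. On the same arrays and scale Smad7, an inhibitory Smad and a target of the pathway, rose with activin by 1.97 (SE 0.16, adjusted p = 0.0174) in the mean response. By genotype no Smad7 response was called: it differed by 2.56 (adjusted p = 0.135) in Trim33-KD, 0.23 (adjusted p = 0.946) in Smad4-null and 3.11 (adjusted p = 0.0535) in WT. The difference between the Smad4-null and WT responses of Smad7 was -2.88 (SE 0.40, adjusted p = 0.258).

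The 3 members at an unadjusted p under 0.05 in the WT response were the 3 probe sets of Smad1. They were higher with activin by 0.51 (1448208_at), 0.53 (1459843_s_at) and 0.75 (1416081_at), with SE of 0.20, 0.19 and 0.24, and both activin arrays lay above both SB431542 arrays in each. Their unadjusted limma p-values were 0.0332, 0.0273 and 0.0139 and their adjusted p was 0.9999. In Trim33-KD the same probe sets differed by 0.25, 0.23 and 0.11 with overlap, and in Smad4-null by -0.27, 0.13 and -0.46, with the activin arrays below the SB431542 arrays in the first and the last. The difference between the Smad4-null and WT responses was -0.79 (95% interval -1.44 to -0.14, adjusted p = 0.667) for 1448208_at and -1.21 (95% interval -1.99 to -0.43, adjusted p = 0.555) for 1416081_at.

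Over the members, limma called 0 of 24 in the difference between the Smad4-null and WT responses, with 2 at an unadjusted p under 0.05, and 0 of 24 in the difference between the Trim33-KD and WT responses, with 0 at an unadjusted p under 0.05. Of all probe sets 0% were called in either, and 6.81% and 2.89% passed unadjusted. The differences between responses have the widest errors of the design. Even the Smad7 difference of -2.88 between the Smad4-null and WT responses was not called, so large differences in response could also go uncalled here. Arrays did not overlap between treatments for 6 probe sets higher and 0 lower in WT (9.33% and 16.1% of all probe sets), 3 higher and 5 lower in Smad4-null (26.6% and 16.7%) and 3 higher and 0 lower in Trim33-KD (14.2% and 17.2%). Among the brighter probe sets, where most members lie, the shares in either direction were 21.6% in WT, 44.8% in Smad4-null and 29.1% in Trim33-KD. The 6 in WT were the 3 of Smad1 and 1 each of Smad2, Smad5 and Foxh1.

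**Figure D4:**
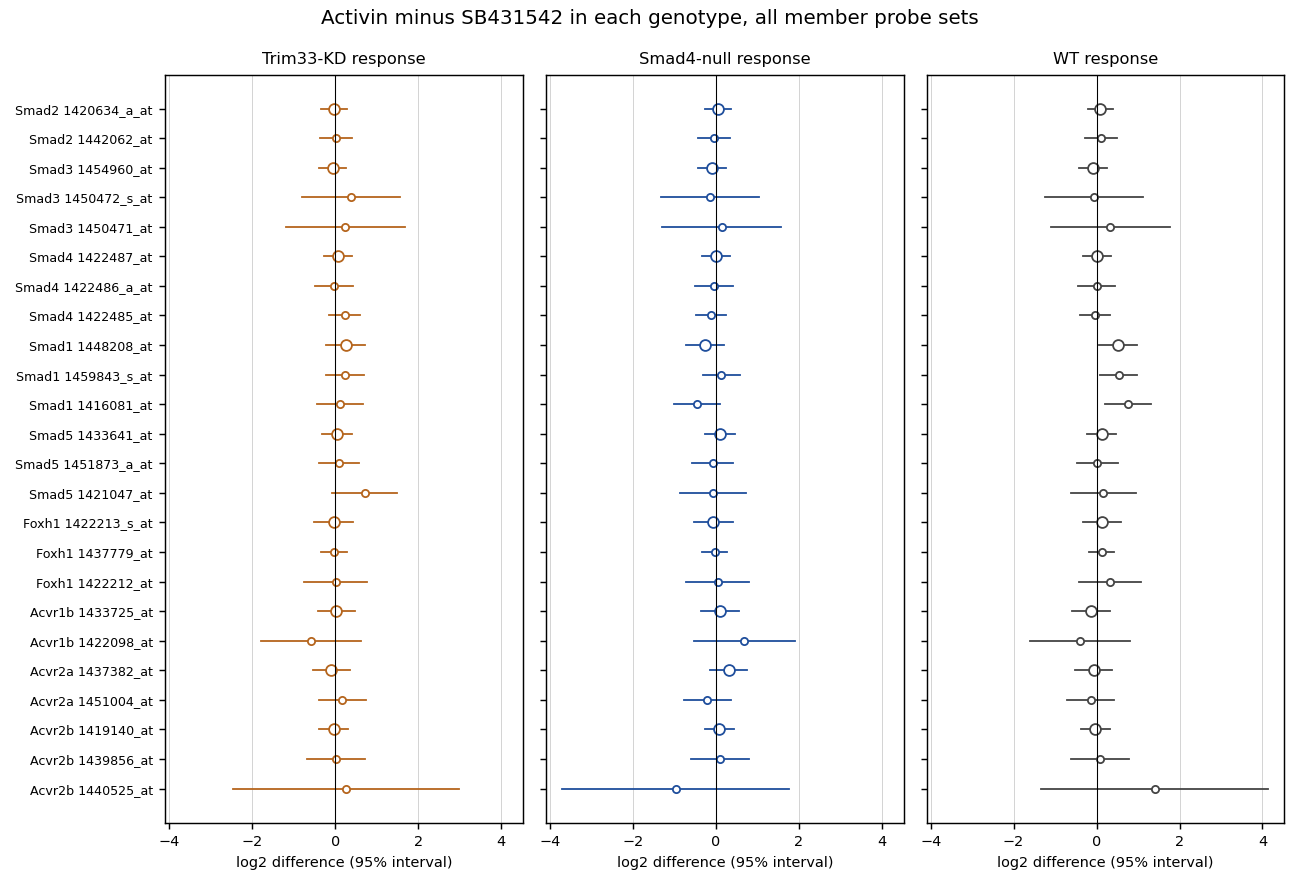
Activin minus SB431542 on the log2 scale with its 95% interval (x axis) for the 24 probe sets in each genotype (large points, each gene's brightest probe set; no point passed the threshold). The 3 Smad1 probe sets in WT lie at 0.51 to 0.75, and every other interval in the 3 panels spans 0.

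Ordered by group mean at the brightest probe set, Smad1 was lowest in Smad4-null-ac (10.08) and highest in WT-ac (10.89), and 4 of the 5 neighbouring pairs overlapped; only Smad4-null-SB and Smad4-null-ac, the lowest, did not. Foxh1 fell into an upper set of 4 overlapping groups, Trim33-KD and WT with either treatment at 11.01 to 11.16, and a lower pair, Smad4-null-SB at 10.52 and Smad4-null-ac at 10.46. Smad5 ran in genotype order, with means of 8.57 and 8.47 in Smad4-null, 8.94 and 8.90 in Trim33-KD and 9.17 and 9.05 in WT, activin before SB431542. Smad4 had Smad4-null-SB (12.17) and Smad4-null-ac (12.16) at the top, apart from 4 overlapping groups at 11.86 to 11.96. The range of the 6 means was 0.81 for Smad1, 0.70 for Foxh1 and Smad5, 0.56 for Acvr1b, 0.43 for Acvr2a, 0.32 for Smad2 and 0.31 for Smad4 and Acvr2b.

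Among 11352 other genes, the profiles most like each member over the 12 arrays were those of Bcl11a (Pearson r = 0.942), Sbk1 (0.918) and Rprm (0.909) for Smad1. For Foxh1 they were Wbp1l (0.970), Clvs2 (0.969) and Dctn5 (0.968). For Smad5 they were Axin2 (0.969), Traf3ip1 (0.969) and Rnf169 (0.969), and for Smad4 Ints6l (0.960), Mbtd1 (0.960) and Notch2 (0.959). These are descriptions over arrays that share genotype, labelling and scaling.

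The genes around the called members on their chromosomes had medians near 0. Each chromosome was divided, by gene order, into 8 runs, and the run that holds Smad1, 77 genes of chromosome 8, had a median Smad4-null minus WT difference of 0.06. The runs of Smad5 (49 genes, chromosome 13) and Foxh1 (55 genes, chromosome 15) had medians of -0.04 and -0.04. Over all of its 8 runs, chromosome 8 had a median of 0.18 (624 genes), against -0.02 for chromosome 13 and -0.04 for chromosome 15.

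The other genes of the pathway were read from lists at their brightest probe sets. Read in the same way, 12.6% of all genes were called between Smad4-null and WT. The share was 12.6% between Trim33-KD and Smad4-null and 0.170% between Trim33-KD and WT. Of the 3 other Smads, 1 was called lower in Smad4-null than in WT: Smad7, at -1.06 (SE 0.20, adjusted p = 0.0189). The inhibitory Smad6 differed by -0.87 (SE 0.22, adjusted p = 0.0517), and Smad9, a further BMP-branch transducer that was dim on these arrays, by 0.60 (SE 0.78, adjusted p = 0.727). Of 13 other receptors and co-receptors of the family, 4 were called lower in Smad4-null and 0 higher: the co-receptor Tgfbr3 (-2.99, SE 0.25, adjusted p = 0.000987), the type II receptor Tgfbr2 (-1.20, SE 0.17, adjusted p = 0.00621), the co-receptor Eng (-0.78, SE 0.14, adjusted p = 0.0172) and the nodal co-receptor Tdgf1 (-0.70, SE 0.11, adjusted p = 0.0105). Their median was -0.31, against -0.03 over all genes and -0.15 over the 9 members.

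Of 15 ligands and secreted antagonists, 2 were called higher and 4 lower in Smad4-null than in WT. The higher were the nodal antagonist Lefty1 (1.32) and the ligand Gdf3 (1.10); the lower were Fst, which binds activin (-4.72), the nodal and BMP antagonist Cer1 (-3.42), the BMP antagonist Chrd (-1.14) and the ligand Tgfb1 (-0.96). Gdf3 and Tgfb1 were named after their values were seen. Of 15 Smad cofactors besides Foxh1, 1 was called lower, the T-box factor Eomes (-3.65, adjusted p = 0.000187), and of 10 Smad modifying enzymes 0 were called. Eomes is also among the mesendoderm markers.

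Between Trim33-KD and WT, Trim33 itself was the only gene called among these 5 lists. Between Trim33-KD and Smad4-null, Tgfbr3 (2.22, SE 0.25), Tgfbr2 (1.76, SE 0.17) and Eng (0.82, SE 0.14) were called higher in Trim33-KD and the nodal co-receptor Cfc1 lower (-0.73, SE 0.15, adjusted p = 0.0235). Smad7 was also called higher, at 1.45 (SE 0.20, adjusted p = 0.00589). Of the 15 ligands and secreted antagonists 5 were called higher in Trim33-KD and 1 lower, the largest differences being those of Fst (3.94, SE 0.26), Cer1 (3.42, SE 0.35), Tgfb1 (1.13, SE 0.18) and the ligand Nodal (0.89, SE 0.15). Of the 15 cofactors Eomes was called higher (2.78, SE 0.18) and Trim33 lower (-1.55, SE 0.14), and of the 10 modifying enzymes 0 were called. The 3 activin receptor genes were called in neither comparison.

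**Figure D5:**
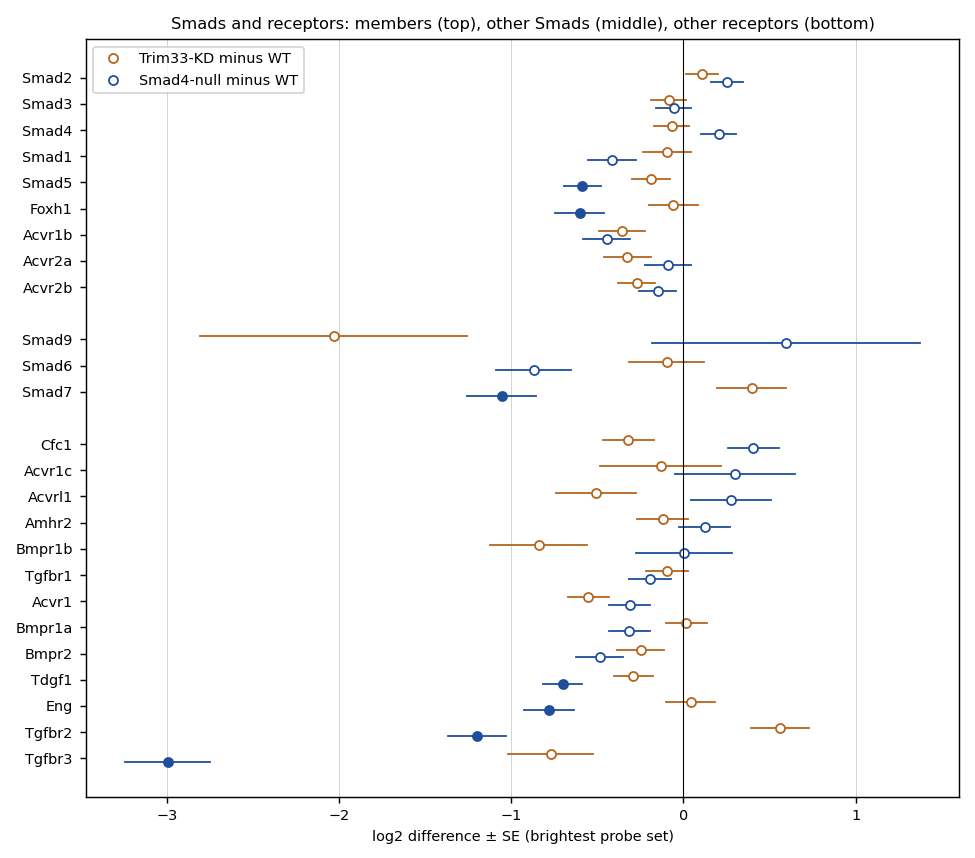
Log2 difference from WT ± SE at the brightest probe set (x axis) for the 9 members, 3 other Smads and 13 other receptors of the family, in Trim33-KD (orange) and Smad4-null (blue); filled points had a limma adjusted p under 0.05. Smad5 and Foxh1 are filled among the members, at -0.59 and -0.60 in Smad4-null, against -2.99 for Tgfbr3.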

How the data were processed

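Total RNA from 12 samples, 2 for each of 6 groups, was measured on 1 Affymetrix array per sample. The values deposited are signals on a log2 scale per the labels, 1 per probe set, and were used unchanged; no source used here gives the summarization method. On the linear scale every array averages 500 when 2% of probe sets are trimmed at either end. Per the submitters' processing notes the authors used limma; no version is named.

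After 64 control probe sets were removed, group means of all 45037 probe sets were modelled jointly over the 12 arrays with limma 3.58.1 in R 4.3.3 (lmFit, then eBayes with its default settings), which leaves 6 residual degrees of freedom. Calls are limma p-values adjusted by Benjamini-Hochberg over all probe sets, under 0.05. The 9 comparisons are the response to activin in each genotype and on average, the difference of each mutant's response from that of WT, and 3 genotype differences averaged over treatments. No pseudocount or filter was used, and depth has no counterpart on arrays. Performance was checked on simulated data. Symbols come from the platform table, updated by Entrez ID to the RefSeq table of GRCm38.p6: 34945 probe sets had 1 symbol, 932 several and 9160 none. A gene is represented by its brightest probe set where 1 value is given. Python 3.11.15 with matplotlib 3.10.9 drew the figures.

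The rule for named genes takes all member probe sets, Trim33, all other Smads, up to 4 called genes per list and comparison with the largest difference, and the 3 genes most alike in profile for Smad4 and the 3 members of widest range. The members and lists were chosen with earlier results of these data known. Lists covered other Smads, other receptors, ligands and antagonists, cofactors, modifying enzymes and markers of 4 cell types.

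A shared replicate number was not taken as a pairing. The alternatives tried are median centring, quantile normalization, the upper 50% of probe sets, 1 value per gene (brightest or mean), exclusion of cross-hybridizing probe sets, limma's array weights, its robust trended prior, fits of only the groups compared, replicate blocks, a floor of 64, and leaving out arrays.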

Additional observations from a re-analysis of the deposited data

Results flagged for a closer look

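Among the 72 combinations of a member probe set and a genotype, each of 4 arrays, 3 held an array far from the other 3, where chance gives about 5%. Smad1 1448208_at read 10.90 on Trim33-KD-ac replicate 1 and 10.38 to 10.44 on the other Trim33-KD arrays. Smad4 1422486_a_at read 11.43 on Smad4-null-SB replicate 1 and 11.33 to 11.34 on the other Smad4-null arrays. Acvr1b 1422098_at, a dim probe set, read 4.50 on Smad4-null-SB replicate 2 and 5.86 to 6.05 on the others.

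Smad1 1448208_at and 1416081_at had responses of opposite sign in Smad4-null and in WT, but no response was called in either genotype. In Smad4-null the responses were -0.27 (limma adjusted p = 0.881) and -0.46 (limma adjusted p = 0.823). For 1448208_at the Smad4-null minus WT difference in response was -0.79 (limma adjusted p = 0.667), and for 1416081_at it was -1.21 (limma adjusted p = 0.555). Both activin arrays lay below both SB431542 arrays in Smad4-null and above them in WT, and the test of the difference did not pass the threshold. Of all probe sets, 16.7% lay lower without overlap in Smad4-null and 9.33% higher without overlap in WT. The third Smad1 probe set, 1459843_s_at, did not show this pattern; its arrays overlapped in Smad4-null.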

How the results depend on the processing

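The number of members called was 0 under every alternative run in all 4 responses, both differences between responses and Trim33-KD minus WT; fitting only the groups compared gave no separate value for the mean response, which already uses all groups. In Smad4-null minus WT the 4 calls became 2 with median centring, with only the groups compared or with a replicate block, 1 with a replicate block within genotype or without the 2 arrays of narrow spread, 0 without the WT arrays of low 18S signal, 9 among the upper 50% of probe sets and 8 with a trended and robust prior; leaving out single arrays gave 1 to 3. In Trim33-KD minus Smad4-null the 2 calls became 4 with median centring or array weights, 7 among the upper 50% of probe sets or with a trended and robust prior, 5 with values floored at 64, 1 with only the groups compared or without the WT arrays of low 18S signal, and 0 with a replicate block within genotype or without the arrays of narrow spread; leaving out single arrays gave 0 to 2. Of the 6 member calls, none reversed. Smad1 1416081_at was called lower in Smad4-null than in WT in 23 of 24 alternatives (differences of -1.31 to -1.06), Smad5 1433641_at in 18 of 25 (-0.63 to -0.49), Foxh1 1422213_s_at in 7 of 24 (-0.70 to -0.44) and Foxh1 1437779_at in 5 of 24 (-0.44 to -0.36); the cause of the lost calls was not tested. Over all probe sets, the calls numbered 1264 to 5874 in Smad4-null minus WT (3982 as reported), 1886 to 6158 in Trim33-KD minus Smad4-null (4267), 0 to 518 in Trim33-KD minus WT (51), 0 to 46 in the mean response (18), 0 to 18 in the WT and Trim33-KD responses (2 and 1), 0 to 28 in the Smad4-null response and its difference from WT (0 and 0), and 0 to 6 in the difference between the Trim33-KD and WT responses (0). Members whose unadjusted p was 0.05 or more changed sign in 302 of 4397 refitted values. Same-numbered arrays deviated together, at r over 0.1, in 2 of 15 pairs of groups (r from -0.23 to 0.49). Both pairs were within a genotype: WT-ac with WT-SB (0.49) and Trim33-KD-ac with Trim33-KD-SB (0.28). For Smad4-null-ac with Smad4-null-SB r was -0.09. The replicate blocks rest on the shared number only, and whether it marks a batch within a genotype was not tested.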
